A study of Mus musculus with 20 samples.

Results

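The CC and CXC chemokine system was examined in mouse liver as a set of 51 genes out of 19505 genes tested. They were taken by name alone. A gene entered when its annotated symbol began with Ccl, Cxcl, Ccr or Cxcr, followed directly by a number and at most 1 letter, and each symbol was represented by its feature of highest mean signal. The set held 23 CC ligands, 13 CXC ligands, 9 CC receptors and 6 CXC receptors. Ccl21b and Ccl21c, near-identical copies, had the same value on every array and cannot be told apart. Ccl27b was not analysed here. Livers came from mice of genotype OGTL WT or OGTL KO, called WT and KO, at 4 or 8 weeks of age, with 5 mice and 5 Clariom S Mouse arrays per group. Ogt encodes the enzyme that attaches the sugar O-GlcNAc to nuclear and cytoplasmic proteins. Strain, sex and what drives the deletion are not given in the sources used here, and all groups share the same tissue and no other treatment is named.

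Chemokines are small secreted proteins that steer leukocytes along gradients. CC and CXC ligands are named for the spacing of their first cysteines, and they act on G protein-coupled receptors carried mainly by blood and immune cells. In the liver, hepatocytes, resident macrophages (Kupffer cells), sinusoidal endothelium, stellate cells and bile duct cells can all secrete chemokines. Ccl2 acts on Ccr2 and recruits monocytes. Cxcl9, Cxcl10 and Cxcl11 are interferon-inducible ligands of Cxcr3, a receptor of activated T and natural killer cells. Cxcl1, Cxcl2, Cxcl3 and Cxcl5 attract neutrophils through Cxcr2. Cxcl12, Cxcl13 and the Ccl19 and Ccl21 ligands act on Cxcr4, Cxcr5 and Ccr7 and guide cells at rest and in lymphoid tissue.

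Values are log2 signals as deposited, so a difference of 1 log2 unit is 2-fold, and signals of different genes are not compared with each other. A gene was taken as above background in a group when its mean passed the 95th percentile of 1412 olfactory and vomeronasal receptor genes, which was 5.01 in 4-week WT, 5.04 in 4-week KO, 5.20 in 8-week WT and 5.02 in 8-week KO. By this measure 26, 30, 22 and 25 of the 51 genes were above background in those groups. Among all genes the shares above it were 57.7%, 58.1%, 54.6% and 58.4%. Altogether 22 of the 51 genes passed in all 4 groups, 8 in some groups and 21 in none. The genes that passed somewhere were 25 of the 36 ligands and 5 of the 15 receptors. The receptors were Ccr2, Ccr7, Cxcr2, Cxcr3 and Cxcr4. In bulk tissue, fewer cells of a type and less RNA per cell cannot be told apart.

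The genotype labels and the tissue were checked first. At 4 weeks Ogt read 9.57 ± 0.31 (SD, n = 5) in WT livers and 8.14 ± 0.53 in KO livers, a difference of -1.43 (SE 0.20, adjusted p = 8.82e-05), and -1.62 without the arrays with muscle transcripts described below. At 8 weeks it was 10.08 ± 0.20 in WT and 9.81 ± 0.21 in the arrays labelled KO, a difference of -0.27 with an adjusted p of 0.529 and overlap between the groups, so the 8-week results compare arrays by label. All 9 hepatocyte markers were above background in every group, with array means between 17.74 and 18.40. At 4 weeks these means ran from 18.15 to 18.26 in WT and from 17.74 to 18.14 in KO, with no overlap. Of the 9 markers 1, Cyp2e1 (-0.60, adjusted p = 0.012), was called lower in 4-week KO and the median difference was -0.24. At 8 weeks limma called none, and none had an unadjusted p under 0.05. At 4 weeks 3 arrays, WT replicate 4 and KO replicates 4 and 5, carried skeletal muscle transcripts. Their mean over 12 muscle markers was 13.84, 11.90 and 11.66, against 4.62 to 6.21 on the other arrays, and called differences of the 51 genes that involve 4-week arrays are given with and without them.

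The start regions of 4 of the genes whose levels changed are shown, because interferon-response and NF-kappaB elements are the known routes to chemokine induction. Each line gives the 250 bases before the transcription start on the gene's own strand, from RefSeq on GRCm38.p6, with matches to 3 fixed motifs in capitals on either strand. They are Cxcl10 at chr5:92348890-92349139 (minus strand), Cxcl9 at chr5:92328080-92328329 (minus strand), Cxcl1 at chr5:90890995-90891244 (plus strand) and Ccl9 at chr11:83578637-83578886 (minus strand).
Cxcl10: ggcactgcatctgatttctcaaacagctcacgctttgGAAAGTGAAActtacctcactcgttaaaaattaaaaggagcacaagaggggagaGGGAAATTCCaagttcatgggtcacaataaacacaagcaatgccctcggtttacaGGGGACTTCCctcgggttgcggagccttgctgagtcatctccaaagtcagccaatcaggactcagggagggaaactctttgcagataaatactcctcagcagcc
Cxcl9: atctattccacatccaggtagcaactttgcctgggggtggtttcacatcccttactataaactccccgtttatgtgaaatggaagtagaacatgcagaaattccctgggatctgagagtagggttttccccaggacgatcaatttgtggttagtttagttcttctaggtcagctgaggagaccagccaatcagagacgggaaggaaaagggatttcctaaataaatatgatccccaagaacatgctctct
Cxcl1: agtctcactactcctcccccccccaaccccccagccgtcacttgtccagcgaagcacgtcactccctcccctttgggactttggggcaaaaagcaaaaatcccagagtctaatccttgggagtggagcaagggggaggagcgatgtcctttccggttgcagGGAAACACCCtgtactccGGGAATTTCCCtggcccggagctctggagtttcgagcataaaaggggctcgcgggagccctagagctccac
Ccl9: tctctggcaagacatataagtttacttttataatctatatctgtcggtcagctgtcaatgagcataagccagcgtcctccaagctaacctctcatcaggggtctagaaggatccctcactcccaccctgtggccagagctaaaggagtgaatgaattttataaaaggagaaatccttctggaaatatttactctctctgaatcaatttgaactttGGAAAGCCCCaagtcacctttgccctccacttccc
The motifs searched were GAAA and GAAA with any 2 bases between them for the interferon-stimulated response element, TTC and GAA with any 3 bases between them for the gamma-activated site, and GGG and TTCC with any 3 bases between them for the kappaB site. In Cxcl10 a match to the first began 213 bases before the start and matches to the kappaB letters began 159 and 104 bases before it. In Cxcl1 the capitals mark a kappaB match at 89 bases and a pair of overlapping matches at 71 and 70 bases, and in Ccl9 a kappaB match at 35 bases before the start. The Cxcl9 window held none of the 3. Of the 14 genes called and above background 11 had a window, and 8 of these, Ccl25, Ccl3, Ccl6, Ccr2, Cxcl12, Cxcl13, Cxcl9 and Cxcr4, held no match. The 3 with a match are all among the lines shown. RefSeq windows were at hand for 36 of the 51 genes, 40 windows in all. The response element was in 3 of these 40 (7.5%, Ccl19, Cxcl10 and Cxcl14) against 2.97% of 32817 windows of all genes. The gamma-activated letters were in 3 (7.5%, Ccl17, Ccr6 and Cxcl14) against 7.01%. The kappaB letters were in 9 (22.5%, Ccl1, Ccl20, Ccl9, Ccr3, Ccr6, Cxcl1, Cxcl10, Cxcl2 and Cxcl3) against 4.65%. Cxcl1, Cxcl2 and Cxcl3 arose by duplication and lie near each other in RefSeq, so their windows are not independent, and a match is a description of letters, not a site in use.

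At 4 weeks, KO livers had higher chemokine signals than WT livers for 9 of the 51 genes and lower signals for 2, while 40 were not called. Among all genes, 4.7% were called higher and 5.48% lower, 10.2% in either direction. The 9 were Cxcl9, Cxcl10, Cxcl16, Cxcl2, Ccl2, Ccl3, Ccl5, Ccl22 and the receptor Ccr2. The 2 were Cxcl12 and Ccl9. The median difference over the 51 genes was 0.22, against 0.00 over all genes. By class, 4 CC ligands were higher and 1 lower of 23, 4 CXC ligands were higher and 1 lower of 13, 1 of 9 CC receptors was higher, and none of 6 CXC receptors was called (unadjusted p under 0.05 for 2 of them). For 10 of the 51 genes no KO value overlapped the WT values, against 8.55% of all genes. Without the 3 arrays with muscle transcripts 6 genes were higher and 2 lower. Cxcl2, Ccl3, Ccl5 and Ccr2 were then no longer called, and Ccl7 was called in addition. Beside these calls stands the lower hepatocyte marker mean in 4-week KO given above, whose part in them was not tested.

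At 8 weeks, the arrays labelled KO had higher signals for 5 of the 51 genes, Cxcl16, Cxcl5, Ccl22, Ccr2 and Cxcr4. None was called lower by limma (unadjusted p under 0.05 for 5 lower and 10 higher), and 46 were not called. The shares among all genes were 4.94% higher, 1.65% lower and 6.58% in either direction. The median difference was 0.11, against -0.04 over all genes. No overlap between KO and WT was seen for 5 of the 51 genes, against 6.1% of all genes. With array medians set equal, the median of all genes at 8 weeks moved by -0.11, to -0.15, and 4 genes were called higher and 1, Ccl9, lower.

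**Figure D1:**
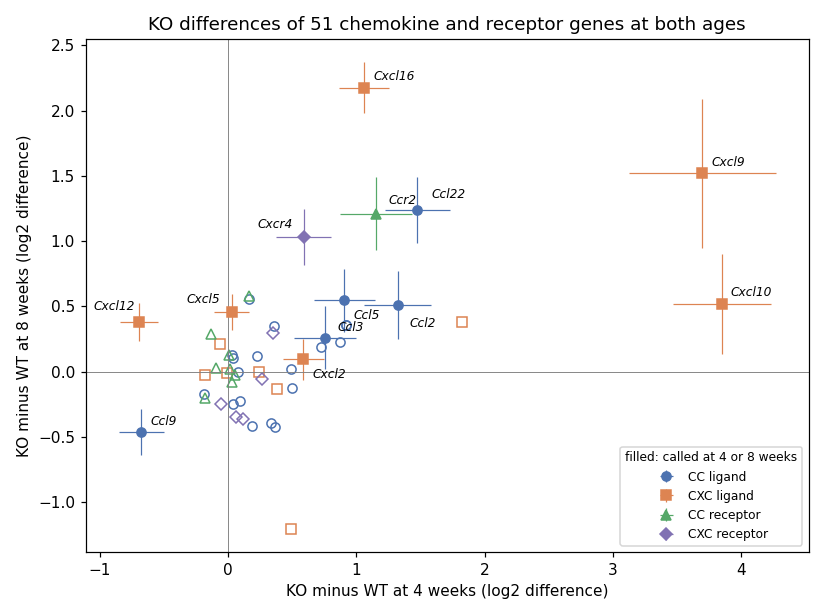
Difference between KO and WT at 4 weeks (horizontal axis) and at 8 weeks (vertical axis), both in log2 units, for each of the 51 genes. Symbols give the class, filled symbols were called at 4 or 8 weeks with bars for the standard error, and open symbols were not. Cxcl9 and Cxcl10 lie far to the right, at 3.70 and 3.85 at 4 weeks, Cxcl16 is highest at 8 weeks at 2.18, and Ccl9 and Cxcl12 are on the left.

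The largest differences at 4 weeks belonged to the Cxcr3 ligands. Cxcl10 read 8.05, 5.96, 6.71, 6.60 and 6.12 in replicates 1 to 5 of 4-week WT and 10.26, 11.11, 10.85, 8.94 and 11.53 in 4-week KO. Every KO array lay above every WT array, with KO replicate 4 lowest of its group and WT replicate 1 highest of its own. The means were 10.54 ± 1.0 and 6.69 ± 0.82 (SD, n = 5), a difference of 3.85 (SE 0.38, 14.4-fold, adjusted p = 1.65e-06), and 4.03 without the muscle arrays (adjusted p = 1.7e-06). At 8 weeks Cxcl10 read 5.96, 5.78, 5.34, 5.67 and 5.44 in WT and 5.81, 6.32, 6.48, 6.25 and 5.93 in KO. These groups overlapped, the difference was 0.52 (SE 0.38) and it was not called (adjusted p = 0.504). The KO difference at 8 weeks was therefore 3.33 log2 units smaller than at 4 weeks (interaction -3.33, SE 0.54, adjusted p = 0.00193), or -3.51 without the muscle arrays (adjusted p = 0.000494).

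Cxcl9 behaved alike at 4 weeks. It read 11.89, 9.69, 9.67, 10.77 and 8.70 in 4-week WT and 12.95, 14.45, 14.34, 12.76 and 14.71 in 4-week KO. The groups did not overlap, and WT replicate 1 and KO replicate 5 were again the highest of their groups. The difference was 3.70 (SE 0.57, 13.0-fold, adjusted p = 0.000206), and 3.93 without the muscle arrays (adjusted p = 0.00115). At 8 weeks it read 8.29, 8.92, 7.64, 10 and 8.36 in WT and 9.57, 10.36, 11.76, 10.16 and 8.96 in KO. The KO mean was 1.52 higher with overlapping groups and was not called (adjusted p = 0.131). The interaction was -2.18 (SE 0.81) and was not called either (adjusted p = 0.165; -2.41 and 0.157 without the muscle arrays), so a change of the Cxcl9 difference with age was not shown.

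Cxcl11, the remaining Cxcr3 ligand, lay a little above background and differed by -0.18 at 4 weeks (adjusted p = 0.751) and -0.02 at 8 weeks (adjusted p = 0.976). At 4 weeks the receptor Cxcr3 read 5.40 ± 0.34 in WT livers and 5.75 ± 0.25 in KO livers (difference 0.35, adjusted p = 0.211), and 5.54 ± 0.17 and 5.84 ± 0.24 at 8 weeks (difference 0.30, adjusted p = 0.34). Markers of the T and natural killer cells that carry Cxcr3 stood near background. Of 17 measured, 3, 5, 2 and 4 were above it in 4-week WT, 4-week KO, 8-week WT and 8-week KO, and array means ran from 4.37 to 4.77. At 4 weeks 1 marker was higher and 1 lower in KO, Cd3e (0.78) and Zap70 (-0.60), both below background in both groups. The 8-week arrays also had 1 higher and 1 lower marker.

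Cxcl16, a chemokine made as a membrane-bound form whose receptor is Cxcr6, was higher in KO at both ages. It read 8.92, 9.21, 8.60, 9.25 and 8.67 in 4-week WT and 9.79, 10.03, 9.59, 10.28 and 10.26 in 4-week KO. At 8 weeks it read 8.46, 8.30, 8.38, 8.44 and 8.59 in WT and 11.01, 10.82, 9.94, 10.30 and 10.98 in KO. No KO array overlapped WT at either age, and the 8-week WT arrays lay within 0.29 of each other. The difference was 1.06 at 4 weeks (SE 0.20, adjusted p = 0.00113; 0.95 and adjusted p = 0.0124 without the muscle arrays) and 2.18 at 8 weeks (SE 0.20, 4.52-fold, adjusted p = 7.27e-07). The interaction of 1.12 (SE 0.28) was called at an adjusted p of 0.0303. Leaving out any of 9 arrays ended that call (adjusted p from 0.0528 to 0.063, interaction from 1.02 to 1.10), and it was 1.22 without the 3 muscle arrays together (adjusted p = 0.0337). Cxcr6 was below background in all groups. Beside the 8-week values, 7 of 8 bile duct cell markers were higher in KO, with array means of 4.78 to 5.95 in WT and 6.98 to 9.36 in KO. Of 11 markers of stellate cells, the collagen-producing cells of the liver, and myofibroblasts, 6 were also higher in 8-week KO, with a median difference of 1.46. Their array means ran from 7.5 to 8.40 in WT and from 8.98 to 10.20 in KO. Lum and Col3a1, which encode matrix proteins, were 3.91 and 3.37 higher. At 4 weeks 1 of the 8 bile duct cell markers and none of the 11 stellate cell and myofibroblast markers was called higher in KO. Of 12 markers of monocytes and infiltrating macrophages, 6 were higher in KO at 4 weeks and 7 at 8 weeks. This list and that of bile duct cells, as drawn up, share the gene Spp1, so their counts are not independent. The part of any of these cells in the Cxcl16 values was not tested.

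**Figure D2:**
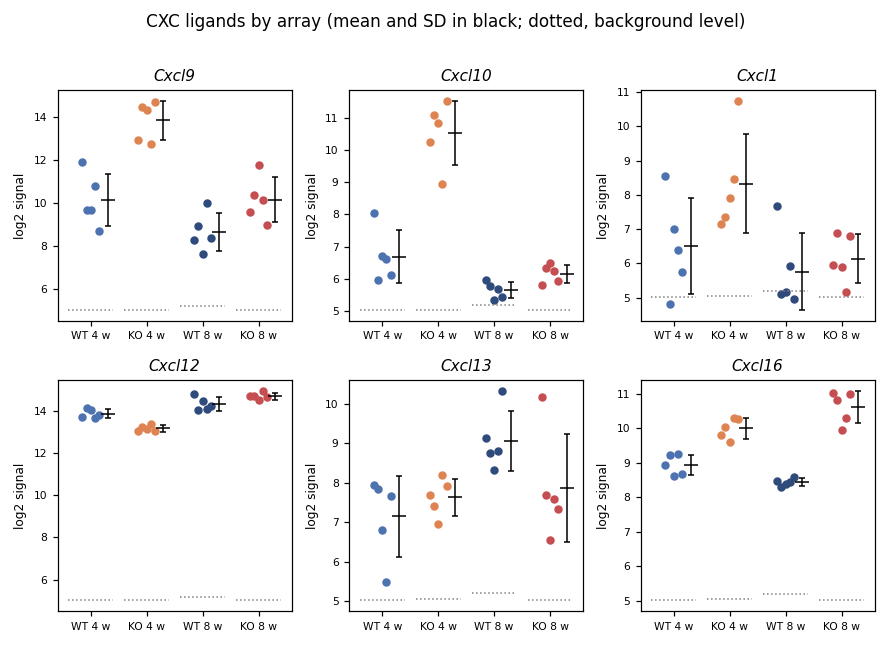
Log2 signal (vertical axis) of 6 CXC ligands on each of the 20 arrays, grouped by genotype and age on the horizontal axis, with the group mean and SD in black and the background level dotted. Cxcl9 and Cxcl10 are raised in the 4-week KO arrays, Cxcl16 in the KO arrays at both ages, and Cxcl12 is lower in the 4-week KO arrays and overlaps WT at 8 weeks.

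Cxcl12, the ligand of Cxcr4 that retains blood progenitors and lymphocytes in tissue, was lower in 4-week KO. It read 13.70, 14.14, 14.07, 13.69 and 13.81 in 4-week WT and 13.05, 13.27, 13.15, 13.41 and 13.05 in 4-week KO, with no overlap. The difference was -0.70 (SE 0.15, 1.62-fold lower, adjusted p = 0.00352), and -0.77 without the muscle arrays (adjusted p = 0.0115). At 8 weeks it read 14.81, 14.05, 14.48, 14.09 and 14.24 in WT and 14.70, 14.72, 14.51, 14.97 and 14.67 in KO. The groups overlapped through WT replicate 1, and the difference of 0.38 was not called (adjusted p = 0.147). Without that WT array it was 0.50 and was called (adjusted p = 0.0366). The interaction was 1.08 (SE 0.21, adjusted p = 0.00676), and 1.15 without the muscle arrays. Sinusoidal endothelial markers, from cells that secrete Cxcl12, had 2 of 10 lower in KO at 4 weeks, Stab2 (-1.07) and Ptprb (-0.73). Their array means were 9.25 to 9.86 in WT and 9.04 to 9.52 in KO, and without the muscle arrays Stab2 alone was called (-1.21). Stellate cell and myofibroblast markers, none called at 4 weeks and 6 of 11 higher in KO at 8 weeks, had 3 of 11 interactions higher (median 1.04). With age in WT, Cxcl12 differed by 0.45 and was not called (adjusted p = 0.0598). Over that interval 5 of the 10 endothelial markers (median -0.81) and 4 of the 11 stellate cell and myofibroblast markers (median -0.98) were lower. No marker of either list was called higher there. The part of either cell type in the Cxcl12 values was not tested.

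Cxcr4, the Cxcl12 receptor, read 5.17, 5.40, 4.71, 5.29 and 4.98 in 4-week WT and 5.68, 5.47, 5.82, 5.67 and 5.85 in 4-week KO. The groups did not overlap, but the difference of 0.59 was not called (adjusted p = 0.0938); it was called with only the 4-week arrays in the fit (adjusted p = 0.0262). It was 0.59 as well without the muscle arrays (adjusted p = 0.206). At 8 weeks Cxcr4 read 5.13, 5.40, 4.73, 5.16 and 5.38 in WT and 6.68, 6.11, 6.67, 5.23 and 6.27 in KO. KO replicate 4 fell among the WT values and the other KO arrays lay above them. The WT mean of 5.16 was not above the background level of 5.20, so KO was at least 1.99-fold higher, and the measured difference was 1.03 (SE 0.22, adjusted p = 0.00414). The interaction was not called (0.44, adjusted p = 0.527).

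The neutrophil-attracting ligands showed little that passed the test. Cxcl1 read 8.55, 4.82, 7.0, 6.38 and 5.76 in 4-week WT and 7.14, 7.36, 7.90, 8.46 and 10.75 in 4-week KO. The KO mean was 1.82 higher (SE 0.67), but WT replicate 1 lay above 4 of the 5 KO arrays and the difference was not called (adjusted p = 0.0963). Leaving out WT replicate 1 brought it to 2.33 with an adjusted p of 0.0248, and leaving out the muscle arrays brought it to 0.93 with an adjusted p of 0.474. At 8 weeks Cxcl1 differed by 0.38 (adjusted p = 0.824). Cxcl2, below background in all groups, was 0.59 higher in 4-week KO (adjusted p = 0.0192; 0.35 and 0.214 without the muscle arrays). Cxcl5, also below background throughout, was 0.46 higher in 8-week KO, at an adjusted p of 0.0487 that 19 of 28 alternatives moved over the threshold. The receptors Cxcr1 and Cxcr2 were not called in any comparison. Of 11 neutrophil markers none was called at either age, and array means ran from 4.06 to 4.70.

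Among the CC ligands, the monocyte attractant Ccl2 was higher in 4-week KO. It read 6.39, 5.31, 5.14, 5.54 and 5.27 in WT and 6.56, 7.42, 6.40, 6.26 and 7.62 in KO. WT replicate 1 lay above KO replicate 4 and the other WT arrays lay below all KO arrays. The difference was 1.32 (SE 0.26, 2.5-fold, adjusted p = 0.00193), and 1.27 without the muscle arrays (adjusted p = 0.00898). At 8 weeks Ccl2 read 5.57, 5.66, 5.80, 5.69 and 5.59 in WT and 6.72, 5.96, 6.45, 5.91 and 5.82 in KO. The groups did not overlap, with a gap of 0.02 between the nearest arrays, and the difference of 0.51 was not called (SE 0.26, adjusted p = 0.293). The Ccl2 interaction was not called either (-0.81, SE 0.37, adjusted p = 0.281), so a change of its difference with age was not shown. Ccl7, another Ccr2 ligand that neighbours Ccl2 in RefSeq, differed by 0.50 at 4 weeks (adjusted p = 0.214). It read 6.27, 5.93 and 5.87 in KO replicates 1 to 3 and 4.83 and 4.77 in KO replicates 4 and 5, the arrays with muscle transcripts. Without the muscle arrays its difference was 1.03 (adjusted p = 0.00174). Ccl8 and Ccl12 were below background in all groups and were not called.

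Ccr2, the receptor that marks inflammatory monocytes, was higher in KO at both ages. It read 5.20, 5.15, 5.62, 5.55 and 4.94 in 4-week WT and 5.28, 6.57, 6.71, 6.66 and 7.01 in 4-week KO. At 8 weeks it read 5.19, 5.80, 5.50, 5.10 and 5.29 in WT and 6.85, 6.69, 5.57, 6.87 and 6.96 in KO. In each KO group 1 array, replicate 1 at 4 weeks and replicate 3 at 8 weeks, lay among the WT values and the other 4 lay above them. The differences were 1.15 (SE 0.28, adjusted p = 0.01) and 1.21 (SE 0.28, adjusted p = 0.0093). Without the muscle arrays the 4-week difference was 0.96 and was not called (adjusted p = 0.0812). The difference did not change detectably with age (interaction 0.06, adjusted p = 0.967).

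Ccl2 was called at 4 weeks alone, and its interaction was not called. Some markers of monocytes and infiltrating macrophages were higher in KO at both ages, as Ccr2 was. Of 12 measured, 6 were higher in KO at 4 weeks and 7 at 8 weeks and none was lower. Their median differences were 0.68 and 1.01, and without the muscle arrays 7 were higher at 4 weeks (median 0.83). Array means ran from 6.27 to 6.73 in WT and from 7.21 to 7.77 in KO at 4 weeks, and from 5.95 to 6.33 and from 6.74 to 7.69 at 8 weeks. Ly6c2, a surface protein of inflammatory monocytes, was 2.98 higher in 4-week KO. At 8 weeks its difference of 1.16 was not called (adjusted p = 0.207), nor was its interaction (-1.82, adjusted p = 0.202). Lyz2, the myeloid lysozyme, was 2.39 higher in 8-week KO. With age in KO 3 of the 12 markers were higher and 4 lower. Ly6c2 differed there by -2.69 (adjusted p = 0.000888), while Ccr2 differed by 0.14 (adjusted p = 0.813). The part of these cells in the Ccr2 and Ccl2 values was not tested.

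Ligands of the leukocyte receptor Ccr1 went in different directions. Ccl5 read 4.07, 4.01, 4.08, 4.18 and 4.36 in 4-week WT and 4.40, 4.61, 5.31, 4.69 and 6.22 in 4-week KO, with no overlap. Only KO replicates 3 and 5 were clearly above background. The WT mean was under background, so KO was at least 1.02-fold higher, with a measured difference of 0.91 (SE 0.24, adjusted p = 0.0175). Without the muscle arrays it was 0.64 and was not called (adjusted p = 0.0565). Ccl3 read 4.5, 4.76, 4.30, 4.26 and 4.98 in 4-week WT and 5.42, 4.80, 5.62, 4.86 and 5.89 in 4-week KO. KO replicates 2 and 4 lay within the WT range. KO was at least 1.23-fold higher, the measured difference was 0.76 (SE 0.24), and its adjusted p of 0.0498 passed the threshold under 10 of 29 alternatives. Ccl3 differed by 0.65 without the muscle arrays (adjusted p = 0.167). At 8 weeks neither was called, with differences of 0.55 for Ccl5 and 0.26 for Ccl3 (adjusted p = 0.207 and 0.616). Ccl4, a neighbour of Ccl3 in RefSeq, was not called in any comparison, and Ccr1 was below background throughout.

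Ccl9, a mouse ligand of Ccr1, was lower in 4-week KO. It read 15.49, 15.27, 15.17, 15.50 and 15.16 in 4-week WT and 14.75, 14.72, 14.30, 14.38 and 15.04 in 4-week KO. The groups did not overlap, with KO replicate 5 nearest to WT. The difference was -0.68 (SE 0.17, 1.6-fold lower, adjusted p = 0.0144), the same to 2 decimals without the muscle arrays (adjusted p = 0.0461). At 8 weeks Ccl9 read 13.25, 14.07, 13.83, 14.36 and 13.82 in WT and 13.33, 13.29, 13.59, 13.25 and 13.55 in KO. WT replicate 1 lay level with the lowest KO array, and the difference of -0.46 was not called (adjusted p = 0.132). Without that array it was -0.62 (adjusted p = 0.023). Ccl6, its neighbour in RefSeq, read 8.41, 7.97, 8.44, 8.26 and 7.99 in 4-week WT and 9.14, 9.48, 8.91, 8.61 and 8.54 in 4-week KO. These groups did not overlap either, yet the difference of 0.72 was not called (SE 0.26, adjusted p = 0.0856). It was called with array weights (adjusted p = 0.0383), with only the 4-week arrays in the fit (adjusted p = 0.0302) and without 8-week KO replicate 5 (adjusted p = 0.0448), and not without the muscle arrays (0.97, adjusted p = 0.0593).

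**Figure D3:**
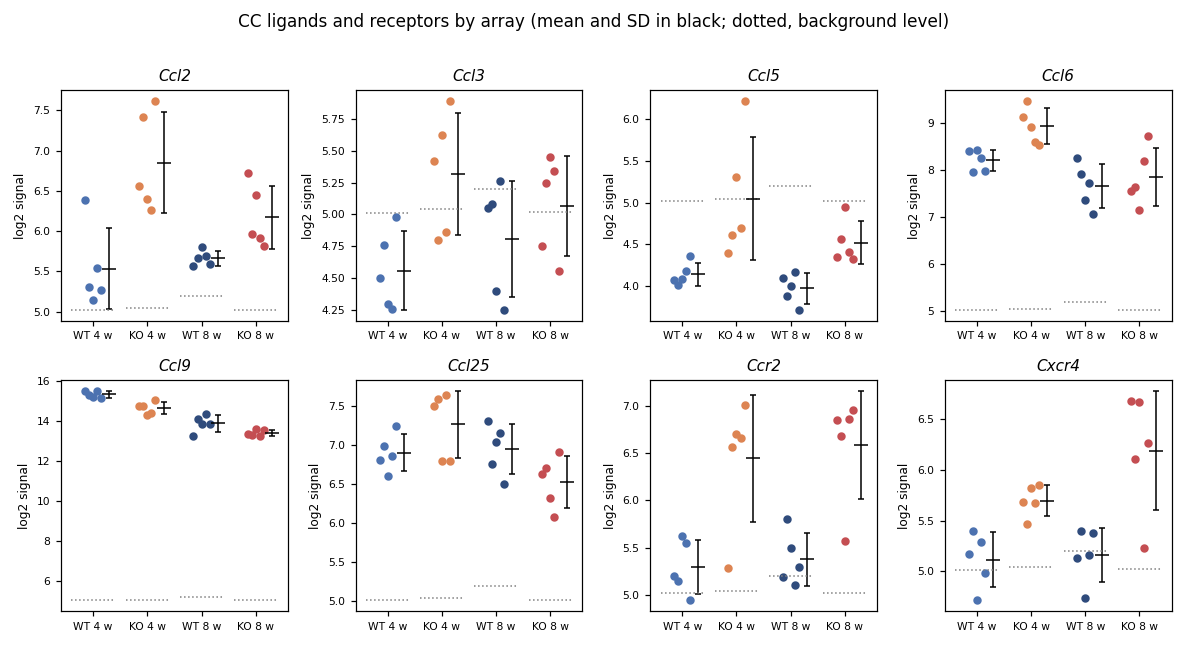
Log2 signal (vertical axis) of 6 CC ligands and the receptors Ccr2 and Cxcr4 on each of the 20 arrays, by genotype and age on the horizontal axis, with group mean and SD in black and the background level dotted. Ccr2 is raised in 4 of 5 KO arrays at each age, Ccl9 steps down from 4 to 8 weeks in both genotypes, and Ccl3 and Ccl5 lie near background.

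Ccl22, a ligand of Ccr4 made by dendritic cells and macrophages, differed most clearly among the genes below background. It ran from 3.05 to 3.79 in 4-week WT, from 3.85 to 5.54 in 4-week KO, from 3.10 to 3.99 in 8-week WT and from 4.24 to 5.03 in 8-week KO. KO and WT did not overlap at either age, and the measured differences were 1.48 (adjusted p = 0.000552; 1.54 without the muscle arrays) and 1.24 (adjusted p = 0.00329). All 4 group means were below the background level, so no fold is given. Ccr4 was also below background in all groups. Of 10 dendritic cell markers, a list that includes the gene Ccr9 of the present set, none was called at either age.

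No Ccr7 ligand was called in any comparison. Ccl19 was below background in all groups and differed by 0.36 at 4 weeks and 0.35 at 8 weeks (adjusted p = 0.273 and 0.323). Ccl21a ran from 6.01 to 7.81 in 4-week WT and from 6.38 to 8.87 in 4-week KO, and its difference of 0.87 was not called (adjusted p = 0.284; 0.83 and 0.385 without the muscle arrays). With age in KO it differed by -0.94 (adjusted p = 0.205), and by -1.37 without 8-week KO replicate 5, when it was called (adjusted p = 0.0283). Ccl21b and Ccl21c together differed by 0.92 at 4 weeks (adjusted p = 0.42). Ccr7 differed by 0.05 at 4 weeks and by -0.03 at 8 weeks. Cxcl13, the B cell attractant that acts on Cxcr5, differed by 0.49 at 4 weeks (adjusted p = 0.683; -0.21 and 0.885 without the muscle arrays) and by -1.20 at 8 weeks (adjusted p = 0.22). At 8 weeks it read 9.13, 8.76, 8.32, 8.80 and 10.34 in WT and 10.18, 7.70, 6.55, 7.58 and 7.33 in KO. KO replicate 1 lay below the highest WT array alone and the other KO arrays lay below all WT arrays. Without KO replicate 1 the difference was -1.78 and was called (adjusted p = 0.0191).

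Between 4 and 8 weeks in WT livers, 1 of the 51 genes was called higher and 1 lower, and 49 were not called. Among all genes 3.71% were higher and 5.23% lower, 8.94% in either direction. The median difference was 0.05, against 0.04 over all genes. Groups did not overlap for 3 of the 51 genes, against 9.08% of all genes. Setting the array medians equal added Cxcl12 (0.51, adjusted p = 0.038), for 2 higher and 1 lower. Ccl9 was lower at 8 weeks by -1.45 (SE 0.17, 2.74-fold, adjusted p = 8.1e-06; -1.41 without the muscle arrays), and all 8-week values listed above lay below all 4-week values. Cxcl13 read 7.94, 7.85, 6.81, 5.49 and 7.66 at 4 weeks and was 1.92 higher at 8 weeks (SE 0.54, 3.78-fold, adjusted p = 0.0275) with no overlap. That call was lost without WT replicate 3 or 4 at 4 weeks or replicate 5 at 8 weeks (differences of 1.84, 1.51 and 1.60, adjusted p = 0.064, 0.0902 and 0.0849). WT replicate 4 is the muscle array and the lowest for Cxcl13, and without all muscle arrays the call was lost too (1.51, adjusted p = 0.0953). Cxcl9 and Cxcl10 were lower at 8 weeks by -1.5 and -1.05 and were not called (adjusted p = 0.112 and 0.0949). Without KO replicate 4 at 4 weeks, which enters only the shared spread, the Cxcl10 difference of -1.05 was called (adjusted p = 0.0309), as it was without the muscle arrays (-1.07, adjusted p = 0.0426). Without WT replicate 5 at 4 weeks the Cxcl9 difference was -1.86 and was called (adjusted p = 0.0466).

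Between 4 and 8 weeks in the KO arrays, 3 of the 51 genes were higher and 6 lower, and 42 were not called. The shares among all genes were 7.85% higher and 6.78% lower, 14.6% in either direction. The median difference was -0.11, against 0.02 over all genes. No overlap was seen for 5 of the 51 genes, against 9.47% of all genes. Cxcl10 fell by 4.38 (20.8-fold, adjusted p = 1.21e-07) and Cxcl9 by 3.68 (12.8-fold, adjusted p = 0.000128). Both groups of values are given above and did not overlap for either gene. These comparisons share the 4-week KO arrays with the comparison against WT at 4 weeks. Cxcl1 read 5.95, 6.89, 5.90, 5.17 and 6.79 at 8 weeks, below every 4-week KO array, and fell by 2.18 (SE 0.67, adjusted p = 0.0322). Without KO replicate 5 at 4 weeks, which read 10.75, it fell by 1.58 and was not called (adjusted p = 0.0956), and without the muscle arrays it fell by 1.33 (adjusted p = 0.215). Leaving out KO replicate 4 at 4 weeks or replicate 1, 3 or 4 at 8 weeks also ended the call (adjusted p from 0.058 to 0.0814).

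Ccl9 fell by 1.24 (SE 0.17, adjusted p = 4.69e-05) in KO with no overlap, beside the fall of 1.45 in WT. Ccl6 read 7.55, 7.65, 7.15, 8.20 and 8.73 at 8 weeks and fell by 1.08 (SE 0.26, adjusted p = 0.00646), with 8-week replicate 5 among the 4-week values. Ccl25, a ligand of Ccr9 known from thymus and gut, read 7.5, 7.58, 6.79, 7.64 and 6.80 at 4 weeks and 6.63, 6.70, 6.32, 6.08 and 6.91 at 8 weeks. The groups overlapped through 8-week replicate 5, and the fall of 0.73 (SE 0.20, adjusted p = 0.0171) was not called without KO replicate 2 or 4 at 4 weeks or replicate 4 at 8 weeks (adjusted p from 0.0509 to 0.0521). In WT, Ccl6 and Ccl25 differed with age by -0.55 and 0.05 (adjusted p = 0.22 and 0.926), and their interactions were not called (-0.53 and -0.79, adjusted p = 0.528 and 0.155). Cxcl12 rose by 1.53 (SE 0.15, 2.88-fold, adjusted p = 4.52e-07) with no overlap. Cxcl16 rose by 0.62 (SE 0.20, adjusted p = 0.0365), which was no longer called when any of 6 KO arrays was left out (rise from 0.52 to 0.63, adjusted p from 0.0602 to 0.109). Cxcl5, below background, differed by 0.41 (adjusted p = 0.0457), a call kept under 10 of 28 alternatives and lost without the muscle arrays (0.42, adjusted p = 0.063). Without the muscle arrays the differences were -4.58 for Cxcl10, -3.75 for Cxcl9, -1.19 for Ccl9, -1.32 for Ccl6, -0.76 for Ccl25, 1.56 for Cxcl12 and 0.81 for Cxcl16, and these 7 genes were still called. Ccl7, at -0.63 and not called with all arrays (adjusted p = 0.0774), was then called at -1.12 (adjusted p = 0.000321), and so was Ccl26, below background, at -0.66 (adjusted p = 0.0478). Leaving out KO replicate 4 or 5 at 4 weeks alone also gave a call for Ccl7 (-0.81 and -0.82, adjusted p = 0.0206 and 0.0153). Kupffer cell markers fell over the same interval, 7 of 9 lower and 1, C6, higher by 5.54, with array means of 8.58 to 9.37 at 4 weeks and 7.95 to 9.0 at 8 weeks. In WT, where Ccl9 fell as well, 2 of 9 Kupffer cell markers were lower and 1 higher with age, 5 of 10 sinusoidal endothelial markers were lower and 4 of 11 stellate cell and myofibroblast markers were lower. The part of these cells in the Ccl6, Ccl9 and Ccl25 values was not tested.

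**Figure D4:**
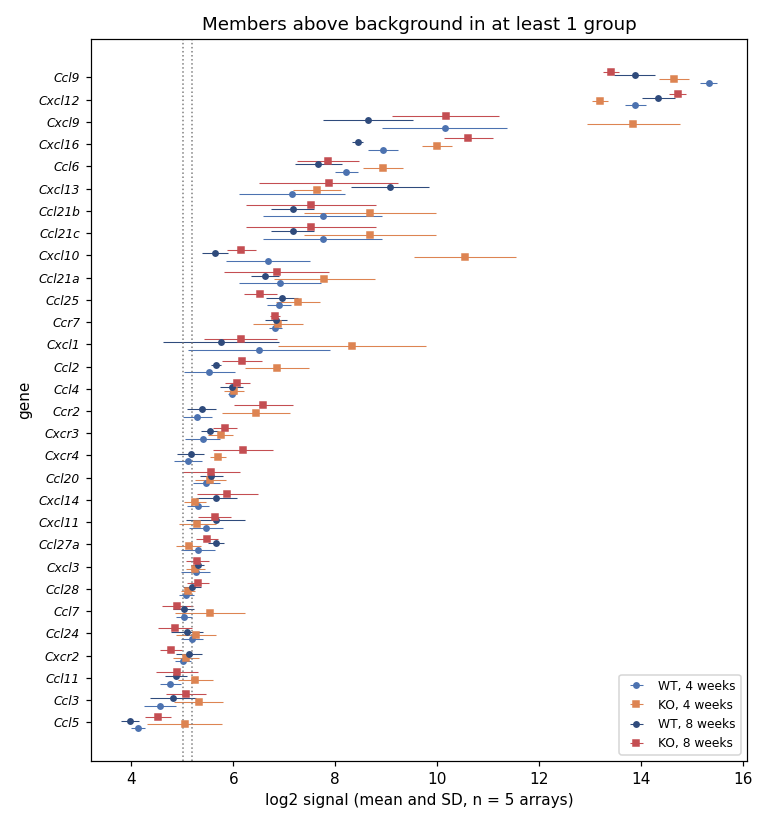
Group mean and SD (n = 5 arrays) of the log2 signal, on the horizontal axis, for the 30 genes above background in at least 1 group, listed on the vertical axis. The dotted lines mark the lowest and highest background level, 5.01 and 5.20, and levels are to be read within a gene and not between genes. The 4-week KO means of Cxcl9 and Cxcl10 stand apart from their other groups, and most other genes have overlapping bars.

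The difference between the KO effects at the 2 ages was called for 3 of the 51 genes, 2 higher and 1 lower, against 3.05% of all genes (2.05% higher and 1.0% lower). They were Cxcl12, Cxcl16 and Cxcl10, with the values given above. The median interaction was -0.19 over the 51 genes and -0.02 over all genes. In total 17 of the 51 genes were called in at least 1 comparison, and 14 of them were above background in a group compared. Of all 19505 genes 25.4% were called in at least 1 comparison. The 34 genes never called had differences from -0.19 to 0.92 at 4 weeks and from -0.42 to 0.58 at 8 weeks between KO and WT.

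Of the 14 genes called and above background, 9 had their highest 4-week KO value in replicate 5, an array with muscle transcripts. Their highest 4-week WT value was in replicate 1 for 5 of the 14. In 8-week KO, replicate 3 was highest for 5 of them, Ccl3, Ccl5, Ccl9, Cxcl9 and Cxcl10, and lowest for 5. How often each array was highest over all genes was not counted, so these counts are not read as a trait of the chemokine genes.

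Other genes of the chemokine system were read from fixed lists. Of 16 further ligands, receptors and scavengers, KO livers had 2 higher and 1 lower at 4 weeks and 4 higher at 8 weeks, and without the muscle arrays 3 at 8 weeks. The counts of this and the next 2 lists stand against 4.7% of all genes higher and 5.48% lower at 4 weeks, and 4.94% higher and 1.65% lower at 8 weeks. Ccrl2, a non-signalling receptor that presents chemerin, was 7.05 ± 0.23 in KO and 5.78 ± 0.18 in WT at 4 weeks (difference 1.27, adjusted p = 0.00418) and 0.94 higher at 8 weeks (adjusted p = 0.0428; 0.0536 without the muscle arrays). Rarres2, which encodes chemerin, was lower in 4-week KO by -0.80 (adjusted p = 0.0242). Among 19 measured genes of receptor signalling, 1 was higher at 4 weeks and 6 at 8 weeks. Rgs1, a brake on G protein signalling, was 1.99 higher in 4-week KO (adjusted p = 0.00018), and Gng2, a G protein gamma subunit, was 1.17 higher at 8 weeks (adjusted p = 0.00378).

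Of 24 measured cytokines and transcription factors upstream of chemokine genes, 8 were higher at 4 weeks and 3 at 8 weeks, and none was lower. At 4 weeks 6 were higher and 1 lower without the muscle arrays. Irf7, a master regulator of type I interferon responses, read 12.18 ± 0.91 in 4-week KO and 8.18 ± 0.75 in 4-week WT, a difference of 4.00 (SE 0.40, adjusted p = 1.92e-06). Its interaction was -3.44 (adjusted p = 0.00227), the direction found for Cxcl10. Stat2, which acts in the same response, was 0.94 higher at 4 weeks (adjusted p = 0.00318). Tnfaip3, an NF-kappaB target that restrains the pathway, was higher at both ages, by 1.11 (adjusted p = 0.00187) and 1.45 (adjusted p = 0.000198). Nfkb2 was 0.88 higher at 8 weeks (adjusted p = 0.00076), with a WT mean below background. Ifng, the cytokine for which Cxcl9 is a classical target, was below background in every group compared, although its difference of 0.60 at 4 weeks was called (adjusted p = 0.0492; 0.45 and 0.168 without the muscle arrays).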

How the data were processed

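RNA from 20 livers, 5 mice per group, was hybridised to Clariom S Mouse arrays, per the labels. Per the submitters' processing notes, the authors summarised the arrays with RMA in Affymetrix Expression Console, and the deposited values are log2 signals per feature. They range from 2.32 to 19.85, with 254 to 288 features above 16 per array, a spread whose origin is not given in the sources used here. Array medians were 5.42 to 5.58, and no array pair was identical. Of 22206 features, 19572 had 1 symbol and 2634 had none in the platform annotation, leaving 19505 genes. The values were fitted as deposited with limma 3.58.1 in R 4.3.3, as 4 group means over all 20 arrays with moderated variances (16 residual degrees of freedom). P-values were adjusted by Benjamini-Hochberg over all genes and called at 0.05. The script was tested on simulated data. For 5 against 5 arrays the smallest exact permutation p is 0.00794. An "at least" fold sets the brighter group's mean against the dimmer group's background level. Genes called in any comparison and above background in a group compared are described array by array, others by counts, ranges or as partners of these. Array number limits the precision. The members and lists were chosen with earlier results of these data known.

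Alternatives were equal array medians, repeated quantile normalization, the dimmest 25% of genes left out, the mean of repeated features, array weights, an intensity trend with robust moderation, only the groups compared, the replicate number as a block, leaving out each array or the muscle arrays, and the 99th percentile as background.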

Additional observations from a re-analysis of the deposited data

Results flagged for a closer look

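In 2 groups of 5 arrays, 1 array stood far from the others for Ccr2. The 4-week KO replicate 1 read 5.28 with the next lowest array at 6.57, and the 8-week KO replicate 3 read 5.57 with the next lowest at 6.69. Chance flags about 1 in 20 groups, and 50 groups were looked at. The KO difference changed between ages for Cxcl10 (interaction -3.33), Cxcl12 (interaction 1.08) and Cxcl16 (interaction 1.12), each by limma's interaction term. At 8 weeks the Cxcl10 difference was smaller, 0.52 against 3.85 at 4 weeks, and was not called. The Cxcl12 difference went from -0.70 at 4 weeks to 0.38 at 8 weeks, where it was not called. The Cxcl16 difference was larger at 8 weeks.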

How the results depend on the processing

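Of 30 called results for single genes, 19 stayed called with the same direction under every alternative run, 11 lost the call under at least 1, and none reversed. With array medians set equal, 1 gene was lower in KO at 8 weeks and 2 were higher with age in WT. Without the dimmest 25% of genes, 3 were higher in KO at 8 weeks. Ccl22 and Cxcl5 were themselves among the genes left out there, so this is not a loss of their calls. With an intensity trend and robust moderation 0 genes were higher with age in WT. With only the groups compared, 1 was higher with age in KO. Without the muscle arrays, 2 interactions were lower (Ccl7 at -1.15 joined Cxcl10), 0 genes were higher and 2 lower with age in WT. The 99th percentile as background left 14 genes above it in 4-week WT, 17 in 4-week KO, 13 in 8-week WT and 19 in 8-week KO, so that 8-week KO and not 4-week KO had the most. Leaving out single arrays gave 7 to 10 genes higher and 2 lower in KO at 4 weeks, 4 to 6 higher and 0 to 1 lower at 8 weeks, 1 to 2 higher and 1 lower interactions, 0 to 2 higher and 1 to 2 lower with age in WT, and 1 to 4 higher and 4 to 7 lower with age in KO. With the replicate block, the KO calls numbered 8 higher and 2 lower at 4 weeks and 4 higher and 0 lower at 8 weeks, and the block ended the calls of Ccl3 (adjusted p = 0.0919) and Cxcl5 (adjusted p = 0.0846 at 8 weeks and 0.0747 with age in KO). Whether replicate numbers pair the animals is not given in the sources used here. Same-numbered correlations ran from -0.18 to 0.48, and some arrays but not all correlated best with their own number. The highest was between the 4-week replicates 4 of WT and KO, which both carried muscle transcripts. Such correlations cannot decide whether animals were paired. The cause of each lost call was not tested. Genes near the background level carry little signal. This limits the 21 of the 51 genes below it in every group. It also limits genes with group means close to it, such as Ccl3, Ccl5, and Ccr2 and Cxcr4 in WT.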
